A study of Drosophila melanogaster with 10 samples.

Results

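Flight muscle of control animals shortly before they leave the pupal case was compared with the notum region of control larval wing discs, the tissue in which the precursors of that muscle are found. The libraries were taken by their labels alone, 2 of WT flight muscle and 3 of WT notum, which is 5 of the 10 libraries of the series. Both groups are Drosophila melanogaster kept at 25 °C and carry the same 3 transgenes. P{UAS-Dicer2.D}1 supplies Dicer-2 wherever Gal4 is made, P{UAS-mCherry-RNAi}attP2 gives a hairpin with no target of its own in the fly, and a GAL4-Mef2 driver expresses Gal4 in the muscle lineage. "WT" therefore stands for a hairpin control and not for an unmanipulated strain. Notum was cut from discs of wandering larvae of the third instar, and flight muscle was dissected about 96 h after puparium formation. The labels do not say whether the libraries of a group came from separate animals or pools, so the tests measure the spread between libraries. The other 5 libraries, from animals with a hairpin against the retinoblastoma-family gene Rbf, entered the fit to estimate that spread and are not described.

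Adult flight muscle is built by myoblasts that lie on the notum epithelium of the wing disc, divide there under Notch and Wingless signalling, and later migrate, fuse and build stretch-activated fibrillar sarcomeres. A sarcomere holds thick filaments of myosin between thin filaments of actin, tropomyosin and troponin that are anchored at Z-discs. The mature fibre is a syncytium that no longer divides and burns sugar aerobically, with an exceptionally dense set of mitochondria. Since the notum sample is a piece of disc, it holds epithelium as well as myoblasts, and the labels' name "myoblasts" covers only some of its cells. Stage, tissue and cell mixture differ together between the groups and cannot be told apart here. Nor can fewer cells of a type and less RNA per cell be told apart in bulk samples.

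Counts over the transcripts used per gene summed to between 42097050 and 55401980 in the notum libraries and to 57271424 and 54055534 in the flight muscle libraries. A few genes dominated flight muscle. The 1% most abundant genes took 76.7% and 76.8% of its counts, against 29.6% to 31.7% in notum, and the 10 most abundant took 43.2% and 40.9% against 6.35% to 7.57%. Genes with at least 10 counts numbered 9888 and 9845 in flight muscle and 11914 to 12829 in notum. Because of this the scale matters. TMM scaling, the main scale, aligns the bulk of the genes. Scaling to library totals asks instead for the share of a library's gene counts, and fold changes on that scale are lower by a median of 2.75 on the log2 scale. For genes with at least 10 counts in the 2 flight muscle libraries together the shift lay between 2.09 and 2.80, and for the 972 genes unread in flight muscle, whose fitted fold changes depend on the prior count, its median was 0.634. CPM below are counts brought to a common library size by TMM, listed in the order of the replicate numbers, and fold changes are log2 of flight muscle over notum with their standard error (SE).

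The tissues differed in most of the genome. Of 13407 genes tested by edgeR's quasi-likelihood test, 4468 (33.3%) were higher in flight muscle and 5823 (43.4%) lower. The threshold was a Benjamini-Hochberg adjusted p under 0.05. The median log2 fold change of all genes tested was -0.49. It was 0.07 over the 10615 genes with at least 10 counts in the 2 flight muscle libraries together. The difference exceeded 2-fold, tested as such, for 3237 genes upward (24.1%) and 4175 downward (31.1%), 55.3% in all. Fitted differences were often very large, with 1300 genes called higher and 1552 lower by at least 16-fold and 238 and 348 by at least 256-fold. The lower counts include genes unread in flight muscle, whose fitted fold changes depend on the prior count. Brd, for one, was fitted as 3914-fold lower. With 3 counts set over the flight muscle group its fold would be 80.4. As a share of library counts, 1464 genes (10.9%) were higher and 10235 (76.3%) lower, and the median was -3.24. All 1464 were also called higher on the TMM scale and all 5823 lower genes were lower on both, while 1990 genes (14.8%) were called higher by TMM and lower by share. The 2 groups did not overlap for 11376 genes (84.9%). Counts of list members below are read against these percentages.

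**Figure D1:**
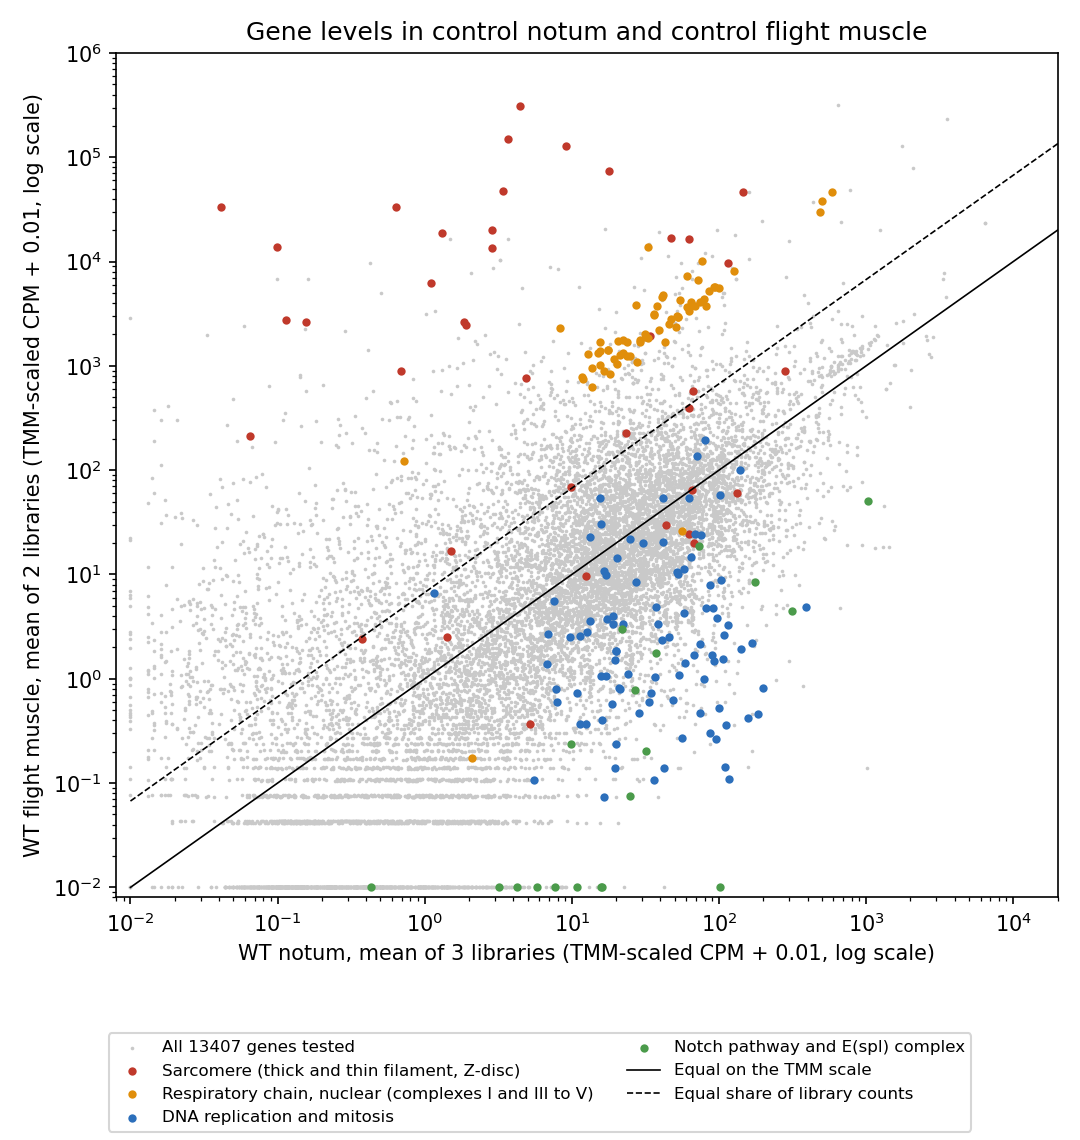
Mean level of each of the 13407 genes in WT notum (horizontal, 3 libraries) and WT flight muscle (vertical, 2 libraries), as TMM-scaled CPM plus 0.01 on log axes, with 4 groups coloured. Genes above the solid line are higher in flight muscle on the TMM scale. Genes above the dashed line also take a larger share of the counts. Nearly all listed nuclear respiratory chain genes lie above both lines in a narrow band, and the listed Notch pathway genes lie below both.

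Thick filament genes went from near absence in notum to some of the most abundant messages of flight muscle. Of 9 members 8 rose and 1 fell on both scales, with a median log2 fold change of 13.76 (11 by share). Their summed counts were 0.0268% to 0.0420% of the counts in the notum libraries and 17.4% and 17.7% in the flight muscle libraries. Mhc (2L), the muscle myosin heavy chain gene, had 9.92, 1.33 and 2.09 CPM in notum and 300079 and 323152 in flight muscle (log2 16.08, SE 1.25, adjusted p = 3.04e-06). The notum libraries held little of it, and replicate 1 held several times more than the others. In flight muscle Mhc alone took 8.31% and 8.94% of the counts over the transcripts used per gene. Mlc2 (3R), a myosin light chain gene, had 11.7, 7.90 and 7.85 CPM in notum and 126343 and 128946 in flight muscle (log2 13.76, SE 0.26, adjusted p = 1.17e-09). Mlc1 (3R), the other light chain, had 1.23, 0.242 and 0.421 CPM in notum and 32973 and 34315 in flight muscle (log2 15.65, SE 0.84, adjusted p = 2.60e-07). The groups lay far apart for both. The gene bt (4), which encodes projectin, the elastic linker of the thick filament to the Z-disc, had 36.5, 9.28 and 8.26 CPM in notum and 83311 and 64343 in flight muscle, a difference of 12 (SE 0.84). Obsc (2R), the obscurin of the M-line, differed by 13.76 (SE 0.48). Prm, the paramyosin gene, rose by 12.42 and Mf, the myofilin gene, by 10.32, although the 2 flight muscle libraries differed for Mf (1331 and 474 CPM in flight muscle). The largest difference of the list was that of fln, the flightin gene, with 6, 2 and 1 counts in notum and 487183 and 537471 in flight muscle (19.84, SE 0.37), a gene whose exons overlap an antisense RNA gene. The member that fell, Mlc-c, the light chain of non-muscle myosin, had 147.9, 132 and 120.2 CPM in notum and 59.9 and 60.1 in flight muscle (log2 -1.15, SE 0.18, adjusted p = 3.70e-04).

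Most thin filament genes rose, the flight muscle isoforms by the most. Of 18 members 15 rose and 1 fell (2 without notum replicate 1), or 10 and 4 by share, with a median of 5.39 (2.63 by share). The median was 11.95 without the members that overlap other genes. Act88F (3R), the flight muscle actin, had 3.44, 3.83 and 3.75 CPM in notum and 139203 and 157945 in flight muscle (log2 15.30, SE 0.23, adjusted p = 1.17e-09) and took 3.85% and 4.37% of the flight muscle counts. The other muscle actins stood far lower. Act79B, an actin of tubular muscles, had 0.129, 0.148 and 0.0361 CPM in notum and 4381 and 1146 in flight muscle, so that flight muscle replicate 1 held several times the level of replicate 2. Act87E and Act57B, actins of larval and other muscle, rose by 3.11 (SE 0.19) and 3.28 (SE 0.28). In flight muscle Act88F stood at 93149.9 RPKM, TMM-scaled CPM per kilobase of transcript, against 1707 for Act79B, 351 for Act87E and 131 for Act57B. Among the troponin C genes TpnC4, which encodes the isoform bound up with stretch activation, had 7, 8 and 8 counts in notum and 207194 and 218607 in flight muscle (log2 17.24, SE 0.24, adjusted p = 1.17e-09). This was the highest called fold change among named, non-overlapping genes of at least 5 CPM. TpnC41C, another troponin C gene, had 0.0185, 0.121 and 0.0240 CPM in notum and 324 and 102 in flight muscle, again with less in replicate 2 (12.02, SE 0.72). TpnC73F and TpnC47D, of larval muscle, rose by 3.47 and 2.71 from low levels, and their shares differed by 0.70 and -0.05, neither passing the test, and TpnC25D was not called (-0.39, SE 0.49). The troponin T gene up (X) had 4.47, 2.18 and 1.96 CPM in notum and 19783 and 20097 in flight muscle (12.75, SE 0.46). The troponin I gene wupA (X) had 2.27, 0.752 and 0.877 CPM in notum and 17666 and 19636 in flight muscle (13.78, SE 0.57). The tropomyosin genes Tm1 and Tm2 rose by 8.04 (SE 0.19) and 12.18 (SE 0.39). Of the genes that set filament length or growth, sals rose by 7.31, tmod, the pointed-end cap tropomodulin, by 2.66 (-0.09 by share, not called), and DAAM, a formin that nucleates actin, fell by 1.75 on the log2 scale. Exons of sals, Act57B and TpnC25D overlap other genes, so their counts are uncertain. The same holds for every gene below that is said to overlap another.

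Z-disc genes gave a median of 6.10 (3.35 by share), with 8 of 12 higher and 2 lower, or 7 and 4 by share. The gene sls (3L), whose products Sallimus and kettin link Z-disc and thick filament, had 123, 186 and 125 CPM in notum and 50049 and 43512 in flight muscle (log2 8.34, SE 0.30, adjusted p = 2.15e-08). The 3 Zasp genes encode PDZ domain proteins that assemble the Z-disc, and they differed in how far they rose. Zasp67 (3L) went from 0.139, 0.107 and 0.192 CPM in notum to 2497 and 2832 CPM in flight muscle (14.13, SE 0.50), Zasp66 rose by 10.33 (SE 0.63), and Zasp52, already at 27.4, 64.8 and 48.3 CPM in notum, rose by 8.48 (SE 0.39). Actn, the alpha-actinin gene, whose exons overlap another gene, had 110.3, 121 and 116 CPM in notum and 9607 and 9778 in flight muscle (6.39, SE 0.12). Mlp60A rose by 10.51 (SE 0.29), and its relative Mlp84B by 2.82 (SE 0.39) with 0.08 by share (adjusted p = 0.836). The gene cpb, which encodes a subunit of the actin capping protein, fell by 1.35 on the log2 scale, while its partner cpa, which overlaps another gene, was not called (-0.04, SE 0.09).

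**Figure D2:**
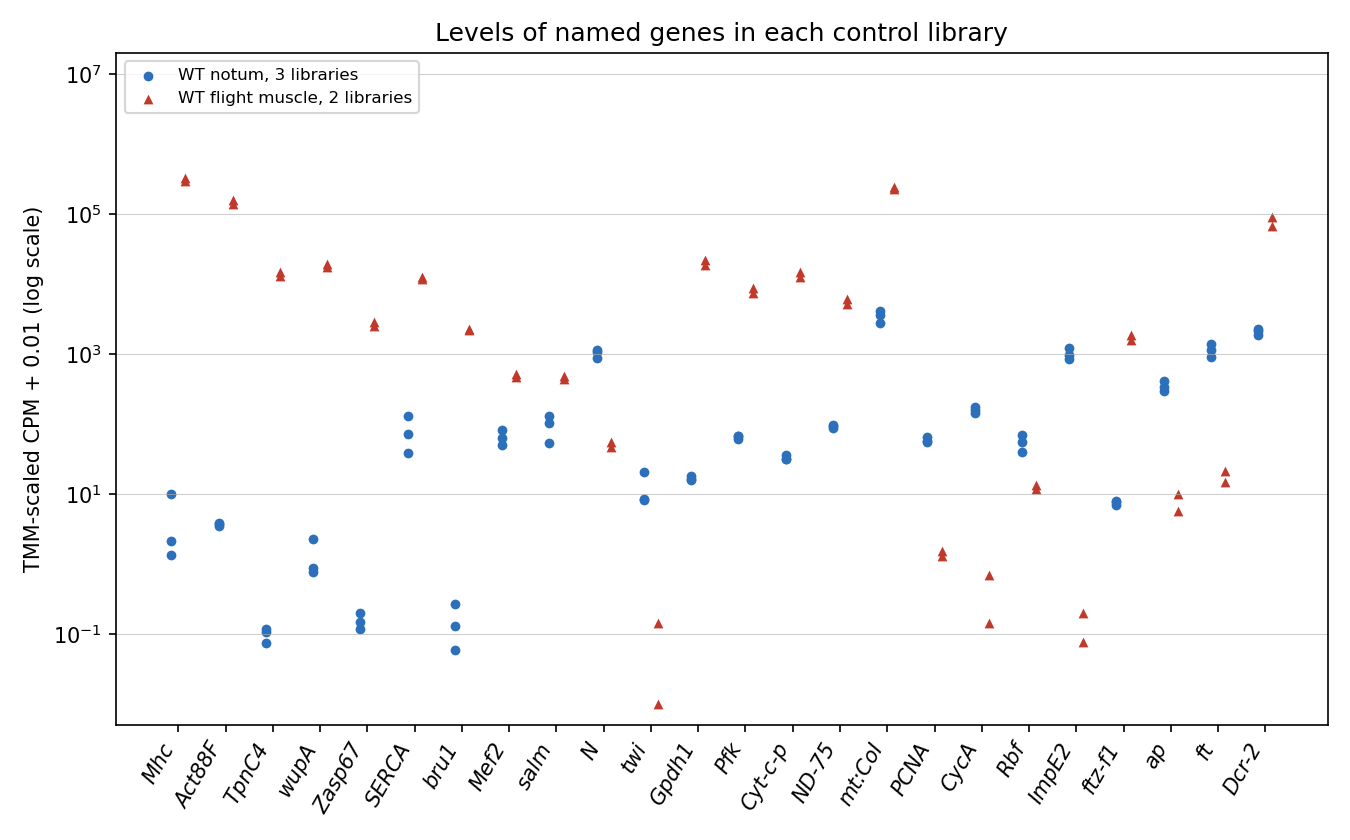
Level of 24 named genes in each of the 3 WT notum libraries (circles) and 2 WT flight muscle libraries (triangles), as TMM-scaled CPM plus 0.01 on a log axis. For each gene shown the groups do not overlap; Mhc spans 1.33 to 9.92 CPM within notum, and Rbf, salm and Mef2 differ least.

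Calcium handling and excitation genes rose with the sarcomere. Of 14 tested 13 rose and 0 fell (median 4.93), and by share 7 were higher and 3 lower. RyR (2R), the calcium release channel of the sarcoplasmic reticulum, had 3.15, 3.42 and 2.15 CPM in notum and 9390.0 and 7808 in flight muscle (log2 11.53, SE 0.41, adjusted p = 1.90e-08). SERCA (2R), the pump that refills it, had 38.9, 129 and 71.9 CPM in notum and 12646 and 11688 in flight muscle (log2 7.25, SE 0.48, adjusted p = 1.07e-06). SERCA was thus well read in notum and RyR barely. The voltage-gated calcium channel subunits Ca-alpha1D and Ca-beta rose by 11.80 (SE 0.24) and 10.38 (SE 0.35), and jp, the junctophilin gene that ties the membranes together, by 11.46 (SE 0.90). The sodium-calcium exchanger Calx rose by 6.90 (SE 0.78) and the calcium-activated potassium channel slo by 9.18 (SE 1.09). Smaller changes were those of the plasma membrane pump PMCA (2.71), the channel Orai (2.80) and arginine kinase, Argk1 (2.79), which came to -0.05, 0.05 and 0.04 by share, none of these passing. Itpr, the IP3 receptor gene, was not called (-0.45, SE 0.24) but was lower by share (-3.19), and called lower without notum replicate 1 (-0.58) or flight muscle replicate 1 (-0.80). Scp1, which encodes a sarcoplasmic calcium-binding protein and lies outside this list, had 7, 6 and 10 counts in notum and 133267 and 78472 in flight muscle (16.23, SE 0.34). Exons of Ca-alpha1D, jp and PMCA overlap other genes.

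Regulators of muscle identity had a median far below those of the sarcomere lists, and bru1 stood apart from the rest of them. Of 16 fate and transcription factor genes 7 were higher and 5 lower. Their median was 0.73. By share 1 was higher and 9 were lower (median -2.0). The gene bru1 (2L), an RNA-binding protein that directs the flight muscle pattern of splicing, had 28, 9 and 4 counts in notum and 36577 and 33276 in flight muscle (log2 13.86, SE 0.69, adjusted p = 1.54e-07). Mef2 (2R), the muscle transcription factor whose promoter fragment drives the Gal4 here, had 49.9, 83.0 and 62.7 CPM in notum and 511 and 462 in flight muscle (log2 2.90, SE 0.21, adjusted p = 2.14e-06). Its share of counts differed by only 0.16 (adjusted p = 0.390). The gene salm (2L), the selector gene of the fibrillar fate, had 52.9, 129.7 and 103 CPM in notum and 445 and 491 in flight muscle (log2 2.3, SE 0.32, adjusted p = 1.66e-04) with -0.44 by share (adjusted p = 0.172). Its paralogue salr rose by 0.98 (SE 0.14) with -1.77 by share. Notum replicate 1 held less salm and Mef2 than the other notum libraries, and the groups did not overlap. The partners of salm, exd and hth, homeodomain proteins of the same fate, were at -0.57 (SE 0.11) and, not called, 0.45 (SE 0.22). The pair vg and sd, which act together in wing and flight muscle, parted, vg rising by 0.59 (SE 0.14) and sd falling by 1.47 on the log2 scale, and on the share scale both were lower (-2.16 and -4.22). The gene ap, a LIM homeodomain gene of the dorsal disc and of muscle, fell from 298, 342 and 405 CPM in notum to 10 and 5.75 CPM in flight muscle.

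Most genes of the precursor list fell, but not all. Of 13 tested 8 fell and 2 rose, beside 43.4% and 33.3% of all genes, and by share 12 were lower and 0 higher. The median was -2.30, or -2.09 with the 1 member unread in flight muscle set at 3 counts over that group, which gives a bound. N is also a member of the Notch list below, and bulk notum does not show which of its cells held these genes. The gene twi (2R), the bHLH gene that keeps the adult precursors undifferentiated, had 886, 1519 and 712 counts in notum and 0 and 2 in flight muscle. Where a group holds only 1 to 3 counts the fold is given as the ratio of TMM-scaled counts of the groups, notum over flight muscle unless said, with an interval for counting error alone, here 181, 95% interval 50 to 1492. Him, an inhibitor of Mef2 activity in the precursors, had 972, 710 and 582 counts in notum and 2 and 1 in flight muscle (a count ratio of 87.5, 95% interval 29.9 to 424), which leaves it close to the detection limit in flight muscle. N, the Notch receptor, had 879, 1139 and 1067 CPM in notum and 54.9 and 47.2 in flight muscle (log2 -4.33, SE 0.16, adjusted p = 2.51e-08). The gene ct, a homeodomain gene of the direct flight muscle precursors, fell by 2.3 and Egfr by 2.76 on the log2 scale. The gene zfh1, which holds precursors back from differentiation, had 20.8, 72.7 and 45.8 CPM in notum and 85.5 and 79.5 in flight muscle and was not called (0.83, SE 0.44), although without notum replicate 2 it was (1.31). The FGF receptor gene htl and its adaptor stumps were the members that rose (1.09, SE 0.10 and 0.76, SE 0.15), and by share they were lower (-1.67 and -1.98).

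Fusion genes as a list moved about as the genes in general did, with single members far apart. Of 21 members 8 rose and 10 fell with a median of -0.45, near the 33.3% and 43.4% of all genes, against 1 and 20 by share. The adhesion receptors hbs and rst, which join founder cells and fusion-competent myoblasts, both fell. The gene hbs (2R) had 52.9, 94.3 and 69.1 CPM in notum and 4.23 and 1.54 in flight muscle (-4.63, SE 0.45). For rst the values were 71.5, 87.0 and 82.5 CPM in notum and 7.25 and 2.47 in flight muscle (-4.04, SE 0.37). The gene rols, a scaffold at the fusion site, fell from 86.5, 144 and 120.1 CPM in notum to 9.84 and 11.3 CPM in flight muscle, and Hem, of the complex that activates SCAR, by 1.85 on the log2 scale. Rac2 and Arf6, small GTPases of the same process, rose by 1.59 (SE 0.13) and 1.13 (SE 0.12) but fell by share (-1.16 and -1.63). Attachment genes were 8 higher and 3 lower of 12 (median 1.20), a direction that turned by share (1 higher, 10 lower, median -1.55). The gene if, the integrin alpha chain of the muscle side of the attachment, rose on both scales (30.5, 31.0 and 33.2 CPM in notum and 348 and 309.7 in flight muscle; 3.38, SE 0.10, 0.63 by share), while mew, the alpha chain of the tendon side, and Tsp, thrombospondin, a ligand made by tendon cells, fell by 1.35 and 2.63 on the log2 scale. The groups did not overlap for these 3 genes. Extracellular matrix genes were 7 higher and 3 lower of 10 (median 0.72), or 2 and 6 by share (median -2.03). Collagen and laminin parted on the TMM scale. Col4a1, a type IV collagen, had 66.6, 65.8 and 62.3 CPM in notum and 423 and 521 in flight muscle (2.86, SE 0.16, 0.11 by share, not called). The laminin chain LanA had 889.9, 988 and 931 CPM in notum and 357 and 376 in flight muscle (-1.35, SE 0.11). LanB1 and LanB2 fell with it, by 1.04 and 0.91 on the log2 scale.

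Sugar catabolism rose nearly throughout. Of 15 glycolytic and shuttle genes 13 were higher and 1 lower (median 5.83, 3.08 by share), and their summed counts were 0.240% to 0.264% of the counts in the notum libraries and 3.24% and 3.72% in the flight muscle libraries. Pfk (2R), phosphofructokinase, the committing step, had 61.6, 66.6 and 67.1 CPM in notum and 7479.9 and 8903 in flight muscle (log2 6.98, SE 0.14, adjusted p = 1.17e-09). Gapdh1 (2R), glyceraldehyde phosphate dehydrogenase, had 94.1, 103 and 95.2 CPM in notum and 17922 and 21885 in flight muscle (7.67, SE 0.14). Its paralogue Gapdh2 had 395, 349.5 and 399 CPM in notum and 4298 and 5166 in flight muscle (3.63, SE 0.12). Per kilobase Gapdh1 stood at 65.8 RPKM in notum and 13448 RPKM in flight muscle and Gapdh2 at 264 RPKM in notum and 3279 RPKM in flight muscle, so that Gapdh2 was the more abundant in notum and Gapdh1 in flight muscle. The steepest rises were those of the glycerol phosphate shuttle, which passes electrons from glycolysis to mitochondria. Gpdh1 (2L) had 17, 15.9 and 17.8 CPM in notum and 18526 and 22371 in flight muscle (log2 10.25, SE 0.15, adjusted p = 1.17e-09). Gpo1 (2R) had 7.74, 6.22 and 7.23 CPM in notum and 8715 and 9072 in flight muscle (log2 10.30, SE 0.32, adjusted p = 9.64e-09). Ldh (3L), lactate dehydrogenase, which disposes of the same electrons without oxygen, fell from 9.87, 12.6 and 10.4 CPM in notum to 1.1 and 2.47 CPM in flight muscle (log2 -2.60, SE 0.36, adjusted p = 1.57e-04). Hex-C, a hexokinase, was at 3.60, 3.40 and 3.28 CPM in notum and 4.04 and 3.54 in flight muscle and not called (0.15, SE 0.18), whereas Hex-A rose by 5.42 (SE 0.43). All 9 tested genes of trehalose and glycogen use rose (median 5.34), 8 of them by share too. Glyp (2L), glycogen phosphorylase, had 87.5, 98.8 and 82.3 CPM in notum and 10745 and 11861 in flight muscle (6.98, SE 0.15). Tret1-1, a trehalose transporter, rose by 7.17 (SE 0.16), and Treh, trehalase, by 4.97 (SE 0.10). Exons of Treh overlap another gene.

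Citric acid cycle genes rose for 18 of 20 members and fell for 2, with a median of 6.34 (3.59 by share, 16 higher and 3 lower). The gene mAcon1 (2L), mitochondrial aconitase, had 191, 216 and 179.6 CPM in notum and 23272 and 25478 in flight muscle (log2 6.96, SE 0.13, adjusted p = 1.17e-09). Idh3a, a subunit of the NAD-linked isocitrate dehydrogenase, rose by 7.07 (SE 0.13) and Pdha, of pyruvate dehydrogenase, by 6.53 (SE 0.12). Of the members that fell, Idh, the NADP-linked isocitrate dehydrogenase, had 433, 395 and 417 CPM in notum and 179 and 205 in flight muscle (-1.11, SE 0.15). The other, ScsbetaG, the GTP-forming succinyl-CoA synthetase subunit, had 43.1, 42.7 and 35.8 CPM in notum and 12.4 and 10.7 in flight muscle (-1.81, SE 0.14). Their counterparts in the ATP-forming and NAD-linked enzymes rose, with ScsbetaA, which overlaps another gene, at 54.6, 64.6 and 50.1 CPM in notum and 5384 and 5858 in flight muscle. Fatty acid oxidation stood apart from this. Of 14 members 10 were higher and 2 lower, but with a median of 1.40. Echs1, which overlaps another gene, and scu were the lower ones, at -0.73 (SE 0.15) and -0.28 (SE 0.10), and scu was not called when any of notum replicates 1, 2 and 3 or flight muscle replicate 1 was left out (-0.33 to -0.20), which leaves 1 lower. By share 1 was higher and 10 were lower (median -1.36). The gene whd, the carnitine palmitoyltransferase that admits fatty acids to mitochondria, was the one higher on both scales (51.8, 63.3 and 45.2 CPM in notum and 535 and 553 in flight muscle; 3.35, SE 0.15, 0.60 by share), and its exons overlap another gene.

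Nuclear genes of the respiratory chain rose almost in step. All 33 complex I subunit genes were higher on both scales, within a range of 5.29 to 6.65 and with a median of 5.89 (3.14 by share). ND-75 (X), a subunit with iron-sulphur clusters, had 97.6, 88.2 and 93.0 CPM in notum and 5127 and 6212 in flight muscle (5.93, SE 0.12). Of 34 genes of cytochrome c and complexes III to V, 32 rose and 2 fell on both scales (median 6.14). ATPsynbeta (4), the catalytic subunit of ATP synthase, had 605, 586 and 569 CPM in notum and 44275 and 48854 in flight muscle (log2 6.31, SE 0.10, adjusted p = 1.17e-09). The gene blw (2R), its alpha subunit, had 503, 507 and 447 CPM in notum and 29272 and 30441 in flight muscle (log2 5.94, SE 0.12, adjusted p = 1.17e-09). Exons of ATPsynbeta overlap another gene. Both subunits stood far above notum in each flight muscle library. Cyt-c-p (2L), cytochrome c, had 35.6, 31.4 and 31.2 CPM in notum and 12680.3 and 14658 in flight muscle and the largest rise of the list (8.71, SE 0.14). COX7A and ATPsynepsilonL were the members that fell (-1.12, SE 0.12 and -3.66, SE 0.47). COX7AL2, an annotated relative of COX7A outside the list, had 9, 3 and 2 counts in notum and 34028 and 39282 in flight muscle (log2 15.43, SE 0.41, adjusted p = 3.73e-09). Per kilobase it stood at 0.162 RPKM in notum and 7877 RPKM in flight muscle against 90.6 RPKM in notum and 41.6 RPKM in flight muscle for COX7A. The phosphate carrier gene Mpcp1 (2R), which feeds ATP synthase, had 1.67, 1.26 and 1.51 CPM in notum and 14626 and 18437 in flight muscle (log2 13.44, SE 0.50, adjusted p = 2.41e-08).

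Genes of the mitochondrial genome took 1.15% to 1.57% of the counts in notum and 22.4% and 20.2% in flight muscle. Of 30 tested 28 rose (median 3.59) and by share 17 were higher and 3 lower. The gene mt:CoI, the first subunit of cytochrome oxidase, had 4173, 2816 and 3640.4 CPM in notum and 241437 and 227023 in flight muscle (6.05, SE 0.18). By the same measure mt:CoII rose by 5.95 (SE 0.19) and mt:CoIII by 6.20 (SE 0.19). The ribosomal RNA gene mt:lrRNA rose by 8.95 (SE 0.23), a level that depends on how much of it the depletion of ribosomal RNA left. All 73 mitochondrial ribosomal protein genes were higher past 2-fold, with a median of 2.89, less than the respiratory chain, and by share 34 were higher and 21 lower (median 0.14). Genes of mitochondrial biogenesis and dynamics went 18 up and 4 down of 23 (median 2.56, or 1.44 without the members that overlap other genes), or 9 and 11 by share. The gene sesB (X), the ADP/ATP translocase, had 722, 655 and 638 CPM in notum and 22131 and 25946 in flight muscle (5.16, SE 0.12). Pink1, a kinase of mitochondrial quality control, rose by 4.41 (SE 0.11), Letm1, an inner membrane protein, by 5.17 (SE 0.13) and Marf, the mitofusin, by 3.67 (SE 0.09). In the other direction srl (3R), the fly PGC-1 homologue and a coactivator of mitochondrial genes, fell from 100, 121 and 123 CPM in notum to 3.66 and 4.35 CPM in flight muscle (log2 -4.84, SE 0.17, adjusted p = 1.71e-08). In the same direction mtSSB, which binds single-stranded mitochondrial DNA during its replication, fell by 4.39 on the log2 scale. Exons of Pink1, Marf and mtSSB overlap other genes.

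**Figure D3:**
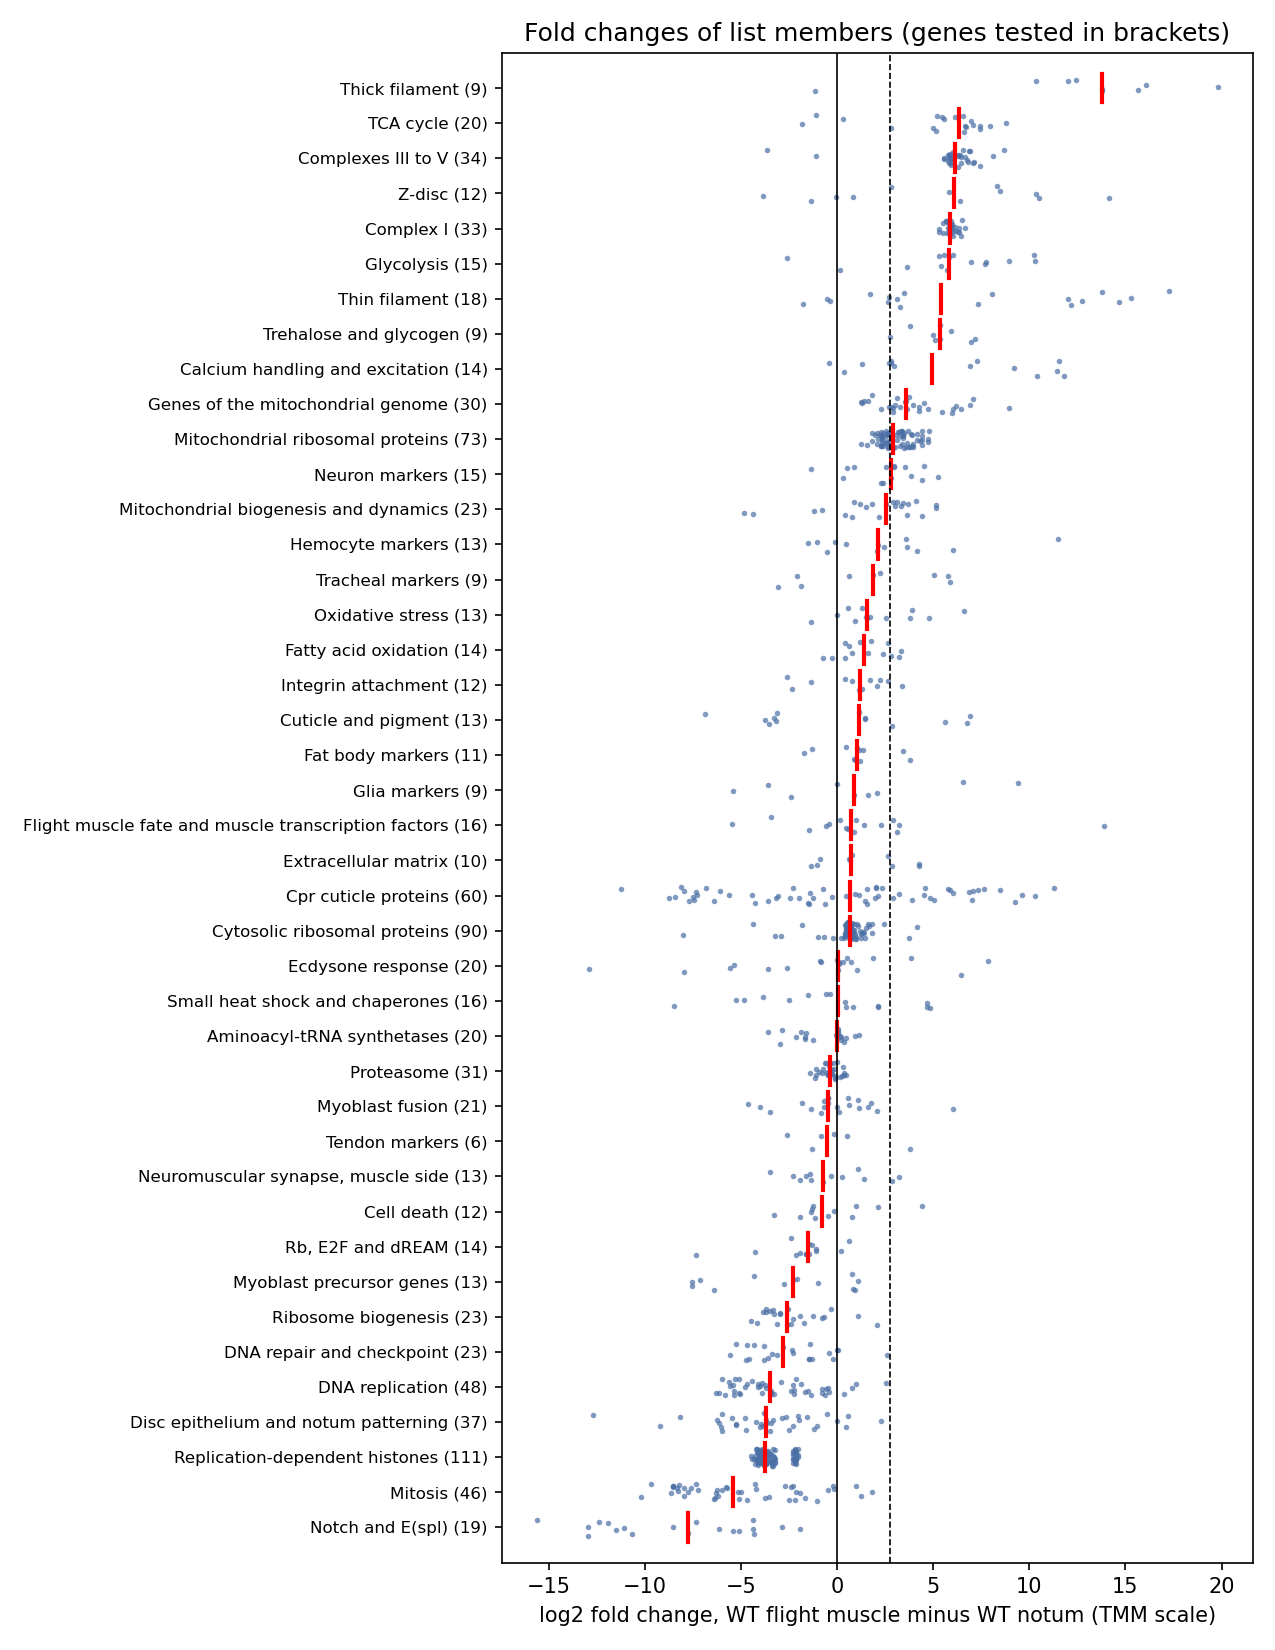
Log2 fold change (WT flight muscle minus WT notum, TMM scale) of each tested member of the 42 gene lists, with the median as a red bar and random vertical spread. The solid line marks equal TMM-scaled level and the dashed line, at the median shift of 2.75, about equal share of counts; complex I genes form a tight cluster above both, and mitosis, replication and Notch genes lie mostly below 0.

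**Figure D4:**
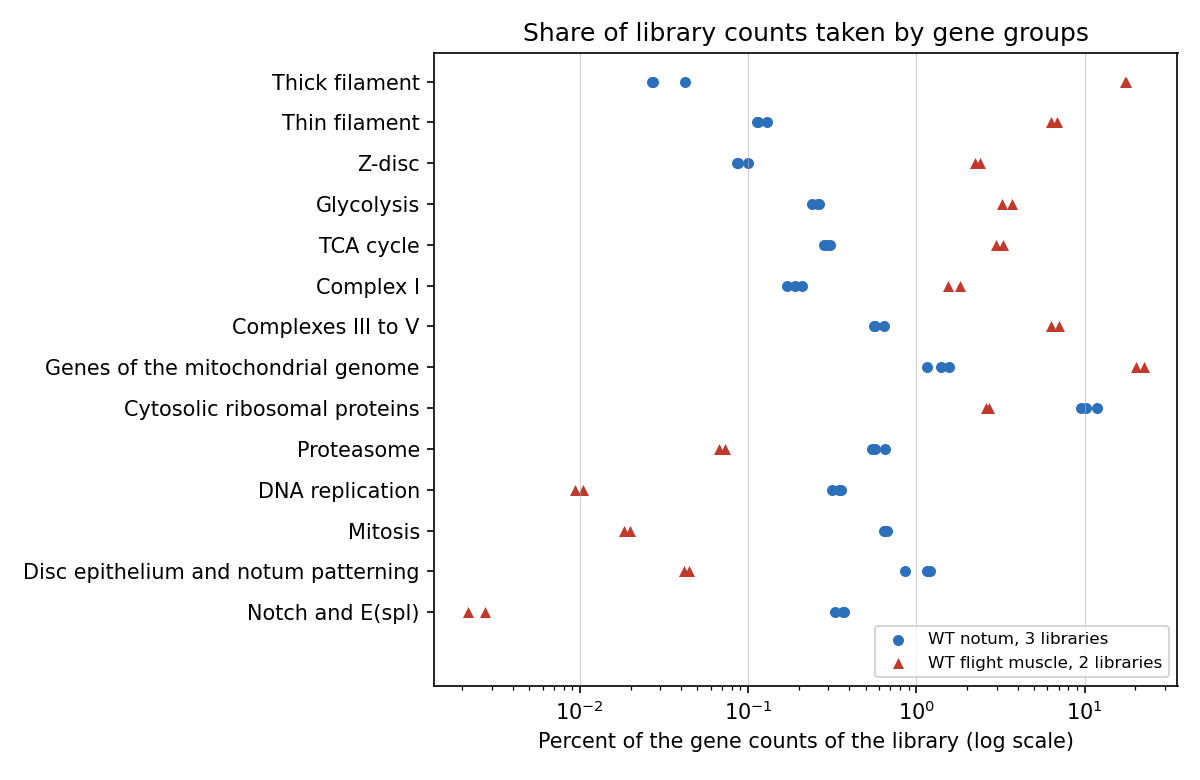
Summed counts of 14 gene groups as a percentage of the gene counts of each WT notum (circles) and WT flight muscle (triangles) library, on a log axis. Thick filament genes went from under 0.1% to over 17%, and cytosolic ribosomal protein genes from about 10% to under 3%, with little spread between libraries of a tissue.

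Cell cycle genes fell with few exceptions. Of 46 mitosis genes 41 fell and 3 rose (median -5.43), of 48 replication genes 44 fell and 4 rose (median -3.48), and by share 46 and 47 were lower and none higher. Mitosis genes summed to 0.638% to 0.672% of the counts in the notum libraries and 0.0198% and 0.0182% in the flight muscle libraries. Incenp (2R), of the chromosomal passenger complex, had 12661, 8600 and 9911 counts in notum and 1 and 2 in flight muscle (a count ratio of 1204, 95% interval 412 to 5839.8). The gene pav (3L), the kinesin of the cytokinetic midzone, had 12085, 7613 and 9510 counts in notum and 1 and 3 in flight muscle (log2 -9.70, SE 0.23, adjusted p = 2.06e-09). The separase partner thr fell by 6.29 on the log2 scale, the cytokinesis kinase sti fell by 7.95 and the condensin subunit Cap-D2 fell by 5.72. Mcm5 (3R), of the replicative helicase, had 55.5, 50.2 and 53.6 CPM in notum and 1.07 and 1.07 in flight muscle (log2 -5.63, SE 0.12, adjusted p = 1.39e-09). PCNA (2R), the sliding clamp, had 55.0, 65.7 and 56.6 CPM in notum and 1.51 and 1.27 in flight muscle (log2 -5.40, SE 0.17, adjusted p = 7.34e-09). The groups lay far apart for each of these genes. RnrS, which supplies the nucleotide pool, fell by 4.10 and dUTPase, which cleans it, fell by 5.38 on the log2 scale. Members that rose were few. The gene fzr, an activator of the anaphase-promoting complex that acts as cells leave the cycle, had 15.6, 16.8 and 14 CPM in notum and 51.5 and 57.7 in flight muscle (1.82, SE 0.10). The gene cnn, a centrosome protein gene, rose by 0.96 (SE 0.09), PCNA2, a second clamp gene, by 2.52 (SE 0.24) and Cdc6, of origin licensing, by 0.76 (SE 0.11). On the share scale these came to -0.93, -1.8, -0.23 and -1.99, all below 0, and that of PCNA2 was not called.

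Of 14 Rb, E2F and dREAM genes 12 fell and 1 rose (median -1.54; 43.4% of all genes were lower). Rbf (X) itself, not targeted in these animals, had 40.2, 69.6 and 55.8 CPM in notum and 11.8 and 13.6 in flight muscle (log2 -2.12, SE 0.22, adjusted p = 2.28e-05), and its paralogue Rbf2 20.4, 21.9 and 23.1 CPM in notum and 0 and 0.268 in flight muscle (-7.36, SE 0.47). The activator E2f1 was the one that rose (95.2, 121 and 117 CPM in notum and 161 and 186 in flight muscle; 0.64, SE 0.15), although it fell by share (-2.11). E2f2, the repressor, was not called (0.21, SE 0.09) but was without notum replicate 1 (0.30) or flight muscle replicate 1 (0.28). Dp, the dimer partner of both, fell by 1.08 on the log2 scale. Repair and checkpoint genes fell for 19 of 23 and rose for 1 (median -2.82), with rad50, of the break-sensing complex, at -4.67 (SE 0.11) and grp, the checkpoint kinase Chk1, at -5.58 (SE 0.13). All 111 copies of the replication-dependent histone genes fell. They are near-identical and share reads, so single copies are not told apart. By type the medians were -4.09 for H2A, -4.03 for H3, -3.82 for H2B, -3.37 for H4 and -2.18 for the linker histone H1. Exons of E2f1, dUTPase, sti, thr and grp overlap other genes.

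Genes for making ribosomes fell, and the proteins of the ribosome itself did not follow them on the TMM scale. Of 23 biogenesis genes 20 fell and 2 rose (median -2.63), and 1 rose without flight muscle replicate 1. The gene nop5, of the nucleolar methylation complex, had 143, 139 and 131 CPM in notum and 8.96 and 12.4 in flight muscle (-3.69, SE 0.17). Nopp140, a nucleolar chaperone, had 173, 178 and 167 CPM in notum and 14.6 and 19.3 in flight muscle (-3.35, SE 0.16). Small nucleolar RNA genes were also mostly lower, with 194 of 253 lower (76.7%, beside 43.4% of all genes) and 7 higher (median -1.83). Medians of other RNA classes were below 0 as well, at -1.35 for snRNA, -1.63 for tRNA and -1.83 for rRNA genes. The part of library preparation in this was not tested. Cytosolic ribosomal protein genes depended on the scale, with 81 of 90 higher and 7 lower by TMM (median 0.66) but 0 higher and 87 lower by share (median -2.09). Their summed counts were 9.49% to 11.9% of the counts in the notum libraries and 2.60% and 2.71% in the flight muscle libraries. RpL27, of the large subunit, had 266, 364 and 208 CPM in notum and 1536 and 1539.6 in flight muscle (2.46, SE 0.20, -0.28 by share), and RpL28 and RpS3A rose by 1.84 (SE 0.16) and 1.59 (SE 0.14) (-0.92 and -1.16 by share). Exons of RpL27 and RpLP0-like overlap other genes. The paralogue RpS19b fell by 4.36 and RpLP0-like by 1.85 on the log2 scale. Aminoacyl-tRNA synthetases, which charge tRNAs, were 4 higher and 9 lower of 20 (median -0.01), with AlaRS at 271, 259 and 238 CPM in notum and 19.7 and 22 in flight muscle (-3.62, SE 0.12) and MetRS at -2.85 (SE 0.09). Proteasome subunits stayed close to notum on the TMM scale, with 19 of 31 lower and 5 higher, a median of -0.37, and 2 lower and 0 higher past 2-fold. The number higher was 1 when flight muscle replicate 2 or notum replicate 3 was left out, 2 without notum replicate 2 and 3 without flight muscle replicate 1. Rpn11, the deubiquitinase of the lid, had 102, 93.5 and 91.3 CPM in notum and 33.4 and 39.7 in flight muscle (-1.39, SE 0.10). By share all 20 synthetases and all 31 proteasome genes were lower.

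Disc patterning genes marked the notum libraries. Of 37 disc epithelium and notum genes 31 fell and 2 rose (median -3.72, 43.4% of all genes being lower). They summed to 0.852% to 1.21% of the counts in the notum libraries and 0.0443% and 0.0413% in the flight muscle libraries. The gene ft (2L), the Fat cadherin of planar polarity, had 900.1, 1406 and 1152 CPM in notum and 21.2 and 15 in flight muscle (log2 -5.99, SE 0.28, adjusted p = 1.12e-07). The gene tsh, a zinc finger gene of the proximal disc, had 219, 299 and 295 CPM in notum and 14.8 and 14.3 in flight muscle (-4.22, SE 0.20). The gene en, the posterior selector, had 22.1, 25.9 and 26.0 CPM in notum and 0.441 and 0.334 in flight muscle (-5.98, SE 0.24). All 3 were far above flight muscle in each notum library. The genes ac and sc are proneural and select bristle precursors on the notum. For ac 1532, 775 and 1199 counts in notum and 0 and 0 in flight muscle were read, so that it was at least 135-fold lower in flight muscle, a bound of the kind described. For sc 2393, 1542 and 1595 counts in notum and 1 and 0 in flight muscle were read (a count ratio of 641, 95% interval 114.98 to 25319). Both salm and vg, also members of this list, were the ones that rose on the TMM scale, and hth had 204, 305 and 308 CPM in notum and 391.7 and 353 in flight muscle. Beside the 900.1, 1406 and 1152 CPM in notum of ft, the precursor marker twi stood at 8.19, 20.4 and 8.56 CPM in notum, and so both epithelial and precursor genes were read in each notum library.

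Every tested member of the list of Notch pathway and E(spl) complex genes fell, a list of 21 that does not cover the whole pathway. All 19 members fell on both scales, each without overlap of the groups, with a median of -7.75, or -5.44 with the 9 members that are unread in flight muscle set to their bounds. Tom (3L), a Bearded-family gene whose products restrain Notch signalling, had 10938, 7111 and 8852 counts in notum and 0 and 0 in flight muscle (at least 1039-fold lower). The relatives E(spl)m6-BFM (at least 167-fold lower), Ocho (at least 161-fold lower) and Brd (at least 80.4-fold lower) were likewise unread in flight muscle. Among the bHLH repressors of the E(spl) complex, E(spl)mdelta-HLH had 1051, 868 and 908 counts in notum and 0 and 0 in flight muscle (at least 109-fold lower). E(spl)mbeta-HLH had 37.7, 39.4 and 35.6 CPM in notum and 2.27 and 1.27 in flight muscle (-4.40, SE 0.22). E(spl)m3-HLH had 27.1, 25.9 and 27.4 CPM in notum and 1.01 and 0.535 in flight muscle (-5.11, SE 0.23). Ser, a Notch ligand, fell from 281, 332 and 335 CPM in notum to 5.68 and 3.14 CPM in flight muscle. Su(H), the DNA-binding partner of Notch, fell by 2.87 and H, its corepressor, by 1.95 on the log2 scale, the smallest falls of the list.

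Ecdysone response genes held some very large changes each way, although as a list they were called no more often than other genes. Of 20 members 6 rose and 7 fell (median 0.06) beside 33.3% and 43.4% of all genes, with 3 higher and 17 lower by share. ImpE2 (3L), an ecdysone-inducible gene of everting discs, had 851, 1234 and 955 CPM in notum and 0.189 and 0.0669 in flight muscle (log2 -12.91, SE 0.54, adjusted p = 5.26e-08). ImpE1 had 88.1, 406 and 241 CPM in notum and 1.1 and 0.803 in flight muscle (-7.98, SE 0.95). The gene br, the Broad transcription factor of the onset of metamorphosis, had 549, 1244 and 1008 CPM in notum and 21.4 and 17.1 in flight muscle (-5.60, SE 0.41). ImpE2 thus fell to a few counts, and exons of br overlap another gene. The genes that rose include ftz-f1 (3L), a nuclear receptor of the intervals that follow ecdysone pulses, with 6.93, 7.83 and 7.57 CPM in notum and 1586 and 1869 in flight muscle (log2 7.86, SE 0.17, adjusted p = 1.44e-09). Another was Eip74EF, an ETS factor of the early response, with 33.8, 77.9 and 51.9 CPM in notum and 799 and 766 in flight muscle (3.84, SE 0.36). Small heat shock and chaperone genes were 5 higher and 6 lower of 16, again near those shares. Hsp23 had 1420.1, 1113 and 1465 CPM in notum and 80.5 and 11.1 in flight muscle (-4.86, SE 0.75), and Hsp27 fell by 5.28 on the log2 scale. The gene stv, a cochaperone of filamin turnover at the Z-disc, rose from 9.11, 15.2 and 12.7 CPM in notum to 420.0 and 283 CPM in flight muscle (4.83, SE 0.30). The flight muscle libraries differed in heat shock genes, Hsp68 having 163 and 9.77 CPM in flight muscle and Hsp26 68.4 and 9.10 CPM in flight muscle, and neither was called. Without flight muscle replicate 1 Hsp26 was called lower (log2 -3.67), and without flight muscle replicate 2 or notum replicate 1 Hsp68 was called higher (3.01 and 3.15). Oxidative stress genes rose for 10 of 13 and fell for 1, or 4 and 9 by share. The one that fell was GstD1, a glutathione S-transferase, with 418, 375 and 402 CPM in notum and 192 and 123 in flight muscle (-1.34, SE 0.18). The mitochondrial superoxide dismutase gene Sod2 had 45.9, 45 and 41.8 CPM in notum and 1125 and 1301 in flight muscle (4.78, SE 0.11). GstS1 (2R), a glutathione S-transferase of flight muscle, had 168, 146 and 164 CPM in notum and 43412 and 48927 in flight muscle (8.18, SE 0.13) and took 1.20% and 1.35% of the flight muscle counts.

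Markers of other cells were present in both dissections. Hemocyte markers were 9 higher and 1 lower of 13 (median 2.13), or 5 and 4 by share, and summed to 0.0184% to 0.0233% of the counts in the notum libraries and 0.0262% and 0.0270% in the flight muscle libraries. Hml, hemolectin, had 8.04, 6.64 and 9.12 CPM in notum and 513 and 536 in flight muscle (6.05, SE 0.21). Nplp2 had 0.0277, 0 and 0.144 CPM in notum and 154 and 182 in flight muscle (11.49, SE 0.54). The one lower, ush, a GATA cofactor that overlaps another gene, was at -1.04 (SE 0.38) and not called without notum replicate 2 (-0.62) or flight muscle replicate 1 (-1.10) or 2 (-1.03). The crystal cell genes PPO1, PPO2 and lz were not called, PPO2, the highest of them, having 1.46, 0.443 and 1.77 CPM in notum and 0.126 and 0.736 in flight muscle. Neuron markers were 11 higher and 1 lower of 15 (median 2.79, 0.04 by share) and summed to 0.0160% to 0.0269% of the counts in the notum libraries and 0.00871% and 0.00732% in the flight muscle libraries. VGlut, the transporter of motor neurons, rose by 4.53 (SE 0.75) and elav, a pan-neuronal gene, stood at 23.0, 42.4 and 42.6 CPM in notum and 78.3 and 55.1 in flight muscle, and both overlap other genes. Without flight muscle replicate 1 elav was at 0.58 and not called. The one lower, ChAT, the choline acetyltransferase of cholinergic neurons, shares exons with VAChT. It was at -1.38 (SE 0.51) and not called when notum replicate 1, 2 or 3 or flight muscle replicate 1 was left out (-1.39 to -0.80). Tracheal markers were 6 higher and 3 lower of 9 (2 and 6 by share) and summed to 0.237% to 0.308% of the counts in the notum libraries and 0.0367% and 0.0391% in the flight muscle libraries. Gasp, a chitin-binding protein gene of the tracheal lumen, had 7.2, 10.7 and 8.28 CPM in notum and 431 and 506 in flight muscle (5.74, SE 0.18), and trh, the tracheal selector, 22.8, 24.4 and 20.7 CPM in notum and 113 and 102 in flight muscle. More abundant members of the list fell. The transmembrane protein gene uif had 613, 918 and 694 CPM in notum and 190 and 159 in flight muscle (-2.09, SE 0.19), and verm, a chitin deacetylase of the tracheal lumen, 174, 306 and 183 CPM in notum and 33.2 and 19.8 in flight muscle (-3.06, SE 0.42). Glia markers were 4 higher and 3 lower of 9 (2 and 7 by share) and summed to 0.0594% to 0.0660% of the counts in the notum libraries and 0.050% and 0.0543% in the flight muscle libraries. The glutamate transporter gene Eaat1 had 1.67, 1.10 and 1.56 CPM in notum and 969.8 and 1028 in flight muscle (9.42, SE 0.36). Gs2, glutamine synthetase, rose by 6.53 (SE 0.33) to a mean of 665 CPM in flight muscle. Eaat1 and Gs2 made up most of the flight muscle sum of this list, 1805 and 1962 CPM, and which cells made them was not tested. In the other direction Gli, the gliotactin gene, which epithelia also use at their septate junctions, had 126, 191 and 195 CPM in notum and 39.4 and 24.3 in flight muscle (-2.42, SE 0.32). The glial fate gene gcm had 212, 67 and 125 counts in notum and 0 and 1 in flight muscle (a count ratio of 46.8, 95% interval 8.36 to 1854). The defining factor repo, which overlaps another gene, stood at 3.74, 3.32 and 3.57 CPM in notum and 9.84 and 12.1 in flight muscle. Fat body markers were mostly not called (2 higher and 1 lower of 11) and summed to 0.0160% to 0.0843% of the counts in the notum libraries and 0.0244% and 0.0199% in the flight muscle libraries. Notum replicate 1 held the most of them in notum, as Lsp2, a larval serum protein, showed with 75.5, 18.3 and 26.8 CPM in notum and 96.6 and 85.7 in flight muscle, and it also held the most Mhc. Without that library 7 of the 11 fat body markers were called higher, Lsp2 among them (log2 2.07, adjusted p = 0.00302 by edgeR), and exons of Lsp2 overlap an antisense RNA gene. Tendon markers were 1 higher (2 without notum replicate 2) and 3 lower of 6 and summed to 0.0556% to 0.0794% of the counts in the notum libraries and 0.0126% and 0.0120% in the flight muscle libraries, with sr, the tendon selector, at 15.5, 44.1 and 29.7 CPM in notum and 28.3 and 24.0 in flight muscle. The member called higher was Alk, a receptor tyrosine kinase gene, with 12.4, 16.3 and 15.6 CPM in notum and 205 and 206 in flight muscle (3.80, SE 0.17). Of the markers named here, Hml, elav, repo, trh, Lsp2 and sr were above 0 in every library. In contrast gcm was at 0 in flight muscle replicate 1 and Nplp2 at 0 in notum replicate 2. The part of these cells in the differences above was not tested, and the summed share of a few markers does not measure it.

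Single cuticle genes, which muscle is not known to use, differed widely. Of 13 cuticle and pigment genes 6 rose and 6 fell, beside 33.3% and 43.4% of all genes. Among enzymes of catecholamine and pigment synthesis that rose, ple, tyrosine hydroxylase, had 6.58, 5.61 and 2.78 CPM in notum and 693 and 515 in flight muscle (6.92, SE 0.56). The aspartate decarboxylase gene b had 10.9, 10.2 and 9.19 CPM in notum and 512 and 467 in flight muscle (5.6, SE 0.18), and tan, t, had 0.592, 0.148 and 0.336 CPM in notum and 42.4 and 38.5 in flight muscle (6.76, SE 0.81). The gene kkv, the chitin synthase of the epidermis, fell from 140.2, 180.0 and 179 CPM in notum to 18.7 and 5.95 CPM in flight muscle. Of 60 Cpr cuticle protein genes 21 rose and 20 fell, so as a list they were called no more often than other genes. The medians of both lists were above 0 (1.16 and 0.67) and fell below it by share (-1.60 and -2.08) or without flight muscle replicate 1 (-2.23 and -0.66), so no direction is given for them. Cpr64Aa had 1.07, 1.81 and 1.60 CPM in notum and 679 and 389 in flight muscle (8.49, SE 0.35). Cpr64Ad had 0.851, 0.457 and 0.409 CPM in notum and 567 and 343 in flight muscle (9.60, SE 0.49). Outside that list Ccp84Ae had 0, 1 and 0 counts in notum and 8019 and 3825 in flight muscle (a count ratio of 102195, 95% interval 18338 to 4036840.0, flight muscle over notum). Ccp84Ag had 0, 0 and 1 counts in notum and 1671 and 933 in flight muscle (a count ratio of 22468, 95% interval 4029 to 887795, likewise). In the other direction Cpr78Ca had 561, 419 and 469 counts in notum and 0 and 1 in flight muscle (a count ratio of 168, 95% interval 30.1 to 6638). The yellow-family genes yellow-e2 and yellow-e3 were read in notum alone. The first had 1682, 1059 and 1344 counts in notum and 0 and 0 in flight muscle (at least 158-fold lower), and the other had 1065, 482 and 771 counts in notum and 0 and 0 in flight muscle (at least 89.5-fold lower).

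Genes of the muscle side of the neuromuscular synapse were 4 higher and 6 lower of 13 (1 and 9 by share), near the 33.3% and 43.4% of all genes. Their median was -0.74, and it came to -0.23 without notum replicate 1, to -0.48 without flight muscle replicate 2 and to -1.48 without the members that overlap other genes. The gene dlg1, the synaptic scaffold Discs large, had 108, 132 and 125 CPM in notum and 1115 and 1131 in flight muscle (3.21, SE 0.14). Fas2, a cell adhesion molecule of the synapse, fell by 1.95 and gbb, a BMP ligand, by 2.29 on the log2 scale. GluRIIA, the glutamate receptor subunit of highest level in flight muscle and one that overlaps another gene, had 2.53, 0.900 and 1.05 CPM in notum and 5.11 and 2.74 in flight muscle and was called only without notum replicate 1 (log2 2.05), of the libraries left out in turn. Cell death genes were 4 higher and 6 lower of 12 (median -0.81; 1 and 11 by share), also close to the shares of all genes. Buffy, a Bcl-2 family gene, had 1.64, 2.57 and 2.20 CPM in notum and 44.6 and 46.2 in flight muscle (4.41, SE 0.20). The effector caspase gene Drice had 63.5, 65.5 and 60.9 CPM in notum and 27.4 and 29.2 in flight muscle (-1.16, SE 0.08).

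Dcr-2, which Gal4 drives in these animals in addition to the endogenous gene, had 1865, 2255 and 2124 CPM in notum and 91408 and 68238 in flight muscle (log2 5.26, SE 0.21, adjusted p = 3.99e-08). Counts from the transgene and from the endogenous gene cannot be told apart. Genes named for the lowest fold changes and not yet described were Wnt2, Septin5, neo and Zwilch. Wnt2, a Wnt ligand gene, had 2159, 1666 and 2117 counts in notum and 0 and 0 in flight muscle (at least 229.6-fold lower). Septin5, a septin gene, had 1538, 1241 and 1135 counts in notum and 0 and 0 in flight muscle (at least 151-fold lower). The gene neo, of the apical extracellular matrix, had 149, 186 and 164 CPM in notum and 0.315 and 0.0669 in flight muscle (-9.73, SE 0.40). Zwilch, of the kinetochore, had 4243, 2666 and 3434 counts in notum and 2 and 0 in flight muscle (a count ratio of 599, 95% interval 166 to 4949.7). The 12 protein-coding genes of highest level per kilobase in flight muscle were mt:CoIII, mt:CoI, Act88F, mt:CoII, Mlc2, Mhc, Mlc1, fln, GstS1, ATPsynbeta, ATPsynC and Cyt-c-p, from 162997 RPKM for mt:CoIII to 20072 for Cyt-c-p. In notum they included RpL41, mt:CoI, mt:CoIII, RpS27A, RpS29, RpL39, sta, RpLP2, Hsp23, RpL23 and RpS18, from 4975 RPKM for RpL41 to 1382 for RpS18. Only mt:CoI and mt:CoIII are on both lists. Abundant genes with the tightest interval around no difference on the TMM scale were CG5174 (0.16, 95% interval -0.03 to 0.35), the sterol transporter gene Npc1a (0.12, -0.07 to 0.31), the SUMO-conjugating enzyme gene lwr (-0.09, -0.30 to 0.11), the caspase inhibitor Diap1, which overlaps an antisense RNA gene (-0.18, -0.39 to 0.02), sta, a ribosomal protein gene (-0.10, -0.31 to 0.11), and eIF3e (0.08, -0.12 to 0.29). By share each of the 6 was called lower, from -2.60 for CG5174 to -2.94 for Diap1. Without notum replicate 1 CG5174 was called as well (0.24).

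Several pairs of related genes exchanged places between the tissues, as levels per kilobase show. These pairs were chosen after their values were seen. Non-muscle myosin heavy chain, zip, stood at 127 RPKM in notum and 24.6 RPKM in flight muscle and Mhc at 0.606 RPKM in notum and 42449 RPKM in flight muscle. Mlc-c stood at 102 RPKM in notum and 46.0 RPKM in flight muscle and Mlc2 at 4.01 RPKM in notum and 55838 RPKM in flight muscle. In notum the non-muscle gene was the more abundant of each pair, and in flight muscle the muscle gene. The light chain genes were paired as a non-muscle and a muscle gene and not as forms of the same subunit. Idh stood at 205 RPKM in notum and 94.9 RPKM in flight muscle and Idh3a at 35.3 RPKM in notum and 4746 RPKM in flight muscle, again crossing. ScsbetaA and ScsbetaG were close in notum, at 32.4 and 25.3 RPKM, and far apart in flight muscle, at 3232 and 7.23 RPKM. The mitochondrial malate dehydrogenase Mdh2 stood at 41.2 RPKM in notum and 7213 RPKM in flight muscle, and the cytosolic enzyme gene Mdh1 at 52.0 RPKM in notum and 63.3 RPKM in flight muscle. No crossing was seen for the ADP/ATP translocase genes sesB and Ant2, the second of which overlaps another gene, and they rose by 5.16 (SE 0.12) and 2.92 (SE 0.08).

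**Figure D5:**
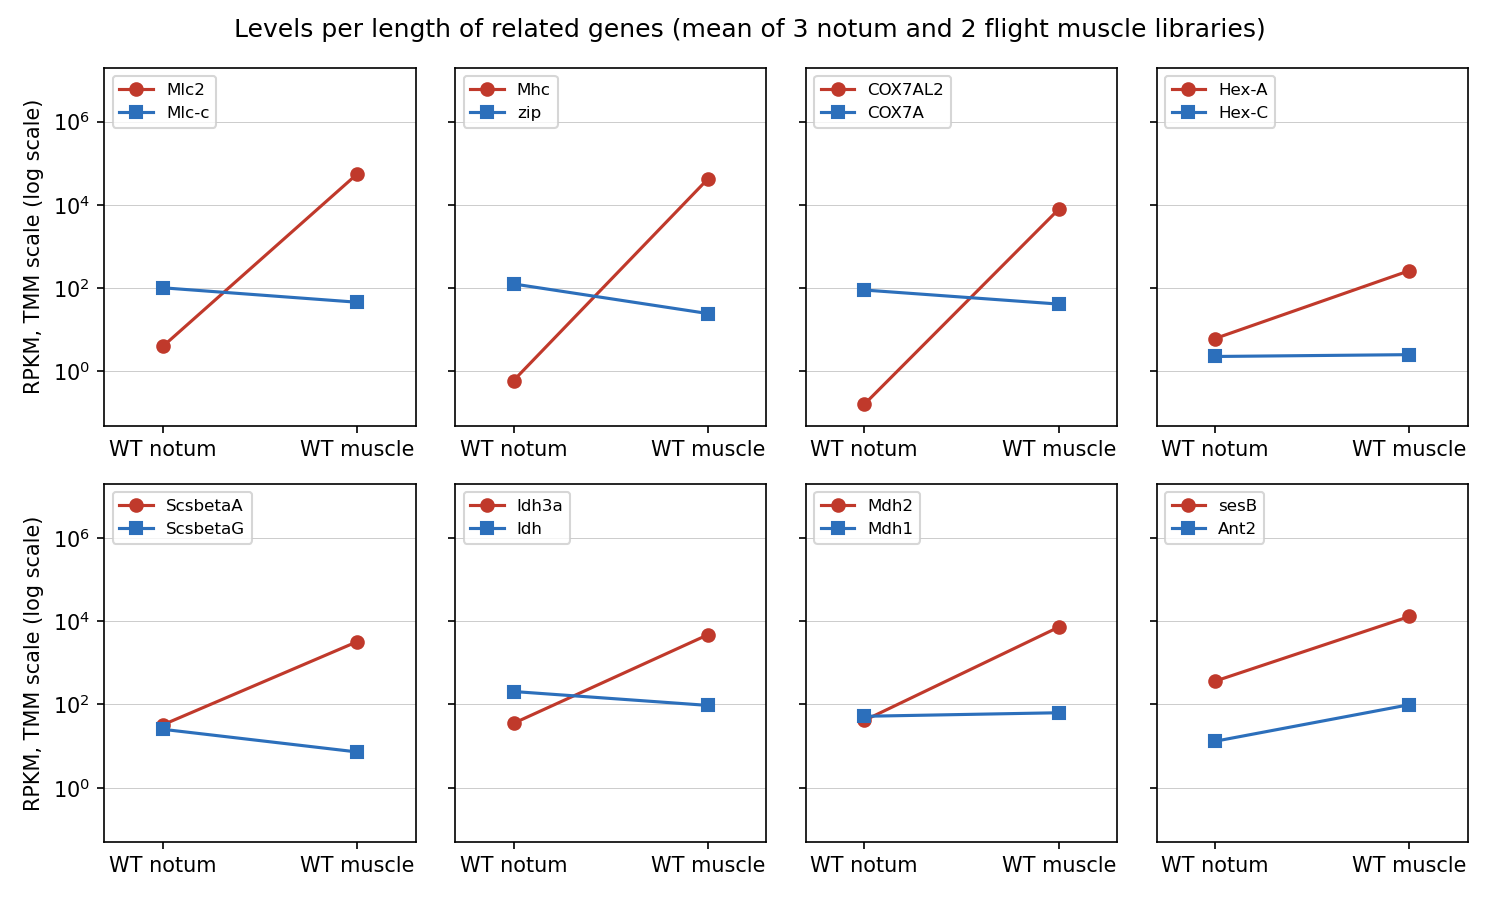
Mean level per kilobase (RPKM on the TMM scale, log axis) of 8 pairs of related genes in WT notum and WT flight muscle, with lines joining the 2 tissues. In the pairs Mlc2 with Mlc-c, Mhc with zip, COX7AL2 with COX7A, Idh3a with Idh and Mdh2 with Mdh1 the order of the genes turns; in the others the first gene is above the second in both tissues.

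Transcripts of a gene mostly gave the same answer, and since a read was counted for each transcript it overlaps, they are not independent of each other. In a fit over transcripts, with TMM factors of its own, 24868 were tested, of which 8839 (35.5%) were higher and 11159 (44.9%) lower. Over 2654 genes with at least 2 called transcripts of 5 CPM or more, the median spread between the transcripts of a gene was 0.0287 on the log2 scale, and it reached 1 for 72 genes and 2 for 20. Muscle genes were among the widest. For Lmpt (limpet, a LIM protein gene) the transcripts ranged from 1.96 to 8.13, the highest having 2494, 2506 and 2605 counts in notum and 166925 and 166197 in flight muscle and the lowest 5869, 3658 and 4667 counts in notum and 4497 and 3920 in flight muscle. For Prm the range was 10.78 to 14.55, for Stacl 7.61 to 11.18, for Msp300, a giant nuclear anchoring protein, 0.78 to 4.20 and for Tm1 4.72 to 7.65. The 20 called transcripts of Mhc by contrast lay within 0.20. These genes were picked for their spread. Of 4859 genes with at least 2 transcripts tested, 8 had called transcripts in opposite directions, TAF1B, btl, cin, TppII, CG42673, Galk, trio and Trl. In btl, the FGF receptor gene of tracheal cells, whose exons overlap another gene, one transcript had 3262, 1657 and 1829 counts in notum and 1446 and 1386 in flight muscle (1.48, SE 0.19). Another had 3089, 1562 and 1687 counts in notum and 156 and 157 in flight muscle (-1.60, SE 0.24). In TAF1B, of RNA polymerase I initiation, the transcripts were at 1.06 and -2.10, and these 2 genes were the ones whose transcripts differed from 0 by at least 1 each way. The difference between the transcripts of a gene does not depend on the scale, but the sign of each does.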

How the data were processed

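Ribosome-depleted total RNA (Ribo-Zero, stranded TruSeq libraries, per the labels) was sequenced from 10 libraries. The deposited table holds raw counts per FlyBase transcript, made by the authors. The submitters' processing notes name the genome build BDGP5, TopHat2 2.1.1 with Bowtie2 2.3.2, featureCounts of Subread, and DESeq2 1.14.1, besides bcl2fastq and FastQC. The annotation version and the strand setting are not given in the sources used here. A near equality of counts between isoforms shows that a read was counted for each transcript it overlaps.

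Of 29173 transcripts, 27011 (92.6%) matched a gene of the BDGP6 annotation, used only for names, chromosome arms and overlaps of at least 30 exonic bases. Counts without a match took 9.86% to 13.1% of notum and 20.1% to 20.3% of flight muscle totals and were left out. The transcript of highest total stood for each of 15259 genes, of which 13407 passed edgeR's filterByExpr (minimum count 10, minimum total 15). All 10 libraries were fitted with edgeR 4.0.16 (TMM, robust glmQLFit, glmQLFTest, glmTreat for 2-fold) in R 4.3.3 with 4 groups, which leaves 6 residual degrees of freedom, after the code was tested on simulated data. In the simulation 200 of 12879 genes were changed. Of log2 changes of 1 and 2, 38% and 81% were called, with 7 false calls, so a gene not called may still differ modestly. Every simulated group was given the notum profile, so the composition of flight muscle was not simulated. These rates need not hold for the real comparison. RPKM used the transcript's length. Alternatives used limma 3.58.1 and DESeq2 1.42.0.

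Gene lists and pairs were chosen with earlier results of these data known. Named genes are the 15 of highest and 15 of lowest fold change among called, named protein-coding genes free of overlap whose mean reached 5 CPM, the 12 of highest RPKM in each tissue, up to 4 and 2 per list by adjusted p in the main and other direction (any member of lists under 20), Rbf, Mef2 and Dcr-2, up to 6 uncalled genes above 100 CPM with the narrowest intervals, and genes with transcripts in opposite directions. A list's counts and median stand in place of a test. Reads carry no molecular identifiers, so intervals and bounds cover counting error only. A list member whose name found no match was not analysed here, and a few genes that the rule names are not reported here.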

Additional observations from a re-analysis of the deposited data

How the results depend on the processing

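The scale decided more than any other choice. With library totals 1464 genes were higher and 10235 lower, 1092 and 9497 past 2-fold, and 2676 and 19580 transcripts. The other alternatives kept each of these counts within 1.5 times. They were DESeq2 size factors in edgeR, DESeq2, limma-voom, no filter on low counts, the sum over transcripts, the 5 WT libraries alone, no overlapping genes and the replicate block, and gave 3090 to 4772 genes higher and 4286 to 5999 lower. Leaving out each WT library in turn gave 4176 to 4519 higher and 5347 to 5586 lower, 3060 to 3311 and 3809 to 4027 past 2-fold, and 8248 to 9064 and 10309 to 10832 transcripts. Where flight muscle was left with 1 library, that library is assumed to vary like the other groups.

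With library totals these named genes turned to negative log2 fold changes by construction, since that scale lowers fold changes by a median of 2.75: Arf6 -1.63, CG5174 -2.60, Cdc6 -1.99, E2f1 -2.11, E2f2 -2.55, Hex-C -2.61, Lsp2 -1.61, Mdh1 -2.47, Npc1a -2.64, PCNA2 -0.23, PMCA -0.05, Rac2 -1.16, RpL27 -0.28, RpL28 -0.92, RpL41 -2.07, RpS3A -1.16, TpnC47D -0.05, cnn -1.8, eIF3e -2.67, elav -1.85, fzr -0.93, hth -2.29, htl -1.67, repo -1.13, salm -0.44, salr -1.77, stumps -1.98, tmod -0.09, trh -0.50, vg -2.16 and zfh1 -1.90. List medians turned likewise for fate factors (-2.0), integrin attachment (-1.55), extracellular matrix (-2.03), fatty acid oxidation (-1.36), mitochondrial biogenesis (-0.20), chaperones (-2.73), fat body markers (-1.70), hemocyte markers (-0.63), tracheal markers (-0.87), glia markers (-1.86), cuticle and pigment (-1.60), ecdysone response (-2.68), oxidative stress (-1.17), cytosolic ribosomal proteins (-2.09) and Cpr cuticle proteins (-2.08).

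Medians near 0 crossed it elsewhere, and the cause was not tested. The synthetases came to 0.14 with DESeq2 size factors, 0.14 by DESeq2 and 0.04 with the WT libraries alone, and leaving out libraries gave -0.13 to 0.05. Chaperones came to -0.18 by limma-voom, -0.07 with no filter, -0.54 without overlapping genes and -0.03 with the replicate block, and leaving out libraries gave -0.92 to 0.27. Ecdysone genes came to -0.03 with no filter and to -0.04 to 0.10 leaving out libraries. Cpr genes came to -0.71 with the WT libraries alone and -0.17 without overlapping genes, and leaving out libraries gave -0.66 to 1.05. Cuticle and pigment genes then gave -2.23 to 1.54. Each of the 4 lowest values, those of chaperones, ecdysone, Cpr and cuticle genes, came without flight muscle replicate 1.

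With library totals calls were lost, with no change of sign, for Act57B (0.53), Ant2 (0.17), Argk1 (0.04), Col4a1 (0.11), Mef2 (0.16), Mlp84B (0.08), Orai (0.05) and TpnC73F (0.70).

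Under the other settings, among the 225 named genes, calls were lost for Mdh1 (with the WT libraries alone, no filter, no overlapping genes, or without notum replicate 2, notum replicate 3 or flight muscle replicate 1), for twi by limma-voom and for elav without flight muscle replicate 1. The weakest calls, those of ChAT, scu and ush, were lost under 7 settings each. Calls were gained by at most 8 genes under any setting on a scale near TMM. Leaving out overlapping genes lowers counts of members by construction. It moved medians from 5.39 to 11.95 for the thin filament, from 6.10 to 8.27 for the Z-disc, from 13.76 to 13.02 for the thick filament, from 2.56 to 1.44 for mitochondrial biogenesis, from -5.43 to -6.17 for mitosis, from -0.01 to -0.73 for the synthetases, from -0.74 to -1.48 for the synapse, from 2.13 to 2.82 for hemocyte, from 1.89 to 1.36 for tracheal and from 0.89 to 0.38 for glia markers. The glia median was 0.26 without flight muscle replicate 2, and that of fat body markers went from 1.04 to 1.94 without notum replicate 1 and to 0.65 without notum replicate 2. Summing transcripts moved calcium handling from 4.93 to 6.44 and tracheal markers from 1.89 to 1.07. The Notch median was -7.19 by DESeq2 and -6.54 by limma-voom, and that of cuticle and pigment genes 0.04 by limma-voom and 0.43 with the replicate block. Small counts of members also moved. With DESeq2 size factors and by DESeq2, 7 synthetases were higher instead of 4, 2 Rb and E2F genes instead of 1, 2 tendon markers instead of 1, and 1 fatty acid gene was lower instead of 2, as with the WT libraries alone. Fat body markers higher were 5 instead of 2 by DESeq2 and with the replicate block. Proteasome genes higher were 2 instead of 5 with no filter and with the block, and 3 with the WT libraries alone. Tendon markers higher were 2 with the block and on summing transcripts, thin filament genes lower were 2 instead of 1 with no filter and on summing, and cuticle and pigment genes lower were 3 instead of 6 by limma-voom.

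Replicate numbers were tried as a pairing. Flight muscle 1 deviated with notum 1 at a correlation of -0.089 and flight muscle 2 with notum 2 at -0.0703. With 2 flight muscle libraries the deviations from their mean mirror each other, so these values cannot decide whether samples were paired. The replicate block gave 4380 genes higher and 5647 lower, 3198 and 4074 past 2-fold.

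Limits: with 3 and 2 libraries the tests see large differences best. Genes short of about 10 counts in at least 2 of the 10 libraries were filtered, so a tested gene can be unread in a tissue. In flight muscle, where few genes hold most counts, a rare message has a coarser detection limit: 1 count is worth more TMM-scaled CPM there than in notum. Counts of overlapping genes and near-identical copies remain uncertain.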

Other observations

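Genes of chromosome 4 stood somewhat apart from those of the other arms. Of 76 protein-coding genes tested on chromosome 4, 44 were higher in flight muscle and 17 lower. On the TMM scale their median was 0.60 (log2). The medians of the other arms were -0.52 for 2L, -0.32 for 2R, -0.31 for 3L, -0.32 for 3R and -0.37 for X. By share of counts the median of chromosome 4 was -2.15, and those of the other arms lay between -3.26 and -3.05. The chromosome was picked after these values were seen, and no test was run.

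RNA classes differed in how many of their genes were lower in flight muscle, beside 43.4% of all genes. Of 30 small nuclear RNA genes 19 were lower and 1 higher, with a median of -1.35. Of 136 pseudogenes 83 were lower and 13 higher (median -2.11), and of 98 genes annotated as ribosomal RNA, which the depletion removes, 80 were lower and 2 higher (median -1.83). Genes annotated as ncRNA were near the share of all genes, with 269 of 600 lower (44.8%) and 129 higher (median -1.64). Transfer RNA genes were below it, with 38 of 114 lower (33.3%) and 22 higher (median -1.63). Protein-coding genes, 12176 in number, had 5140 lower and 4294 higher (median -0.35). The counts of short RNAs depend on how library preparation retains them, which was not tested.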
